A study of Mus musculus with 6 samples.

Results

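The genes described here encode the protein components of the mitochondrial ribosome that carry the symbols Mrpl (large subunit series) or Mrps (small subunit series). Protein-coding genes whose GENCODE M21 symbol begins with either prefix were taken, which gave 78 genes, 49 Mrpl and 29 Mrps, among the 54232 genes of the expression tables. They were measured by RNA-seq in monocytes sorted from the CNS of mice with EAE, an autoimmune inflammation of the CNS used as a model of multiple sclerosis. Lethally irradiated GFP+ recipients had been reconstituted with equal parts of WT (CD45.1) and Ifnar1-/- (CD45.2) BM, so that monocytes with and without the type I IFN receptor chain IFNAR1 developed in the same hosts. All hosts were immunized and given rIFN-β at 30000 IU daily, and monocytes of both genotypes (GFP-CD45+CD11b+Ly6ChiLy6G-) were sorted at disease peak. There were 3 WT and 3 Ifnar1-/- libraries, and no library from mice without rIFN-β was analysed here. The genotypes also differed in the CD45 allele of their donors, and an effect of the one cannot be told apart from an effect of the other. Ages of the mice are not given in the sources used here. There were 3 recipient mice, as many as libraries of each genotype, but neither labels nor methods tie a library to a mouse. Where libraries do not come from separate mice, p-values measure only the spread between these samples, which may be technical.

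Mitochondria keep a ribosome of their own, which makes the respiratory chain proteins encoded by mitochondrial DNA. Its 2 rRNAs, mt-Rnr2 in the large subunit and mt-Rnr1 in the small, are transcribed in the organelle, whereas all of its proteins are encoded in the nucleus, made in the cytosol and imported. Part of these proteins have relatives in bacterial ribosomes, and part exist only in mitochondrial ribosomes. By textbook assignment, 51 of the 78 genes encoded large subunit proteins, 26 encoded small subunit proteins, and 1, Mrps36, encodes a protein now known from the 2-oxoglutarate dehydrogenase complex and not from the ribosome. Proteins with bacterial relatives were encoded by 45 genes and mitochondria-specific proteins by 29, the remainder being the 3 Mrps18 paralogs and Mrps36.

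The 78 genes were scattered over 17 chromosomes, and their starts were described by features that the choice by symbol did not use. An opposite-strand protein-coding gene started within 1000 bases of the start of 33 of the 78 genes (42.3%), against 1805 of 10055 tested protein-coding genes (18.0%). One such pair joined a small and a large subunit gene, Mrps11 and Mrpl46, and others joined Mrpl47 with the complex I subunit gene Ndufb5, Mrpl36 with Ndufs6, and Mrps12 with the mitochondrial seryl-tRNA synthetase gene Sars2. RefSeq promoter windows, from 250 bases before to 50 bases after the start, were matched by symbol for 69 of the 78 genes and were searched on both strands for the letters of 7 motifs. A gene was counted when any of its windows held the letters, whereas shares of all windows are per single window, an unlike unit. The letters AAGATGGC, a core of the YY1 motif, stood in 12 of the 69 (17.4%), against 2.75% of all 32851 promoter windows, 5.92% of 8189 tested genes and 9.84% of 61 cytosolic ribosomal protein genes. The ETS-type letters CCGGAAG stood in 26 (37.7%), against 8.86% and 22.8%, but in 41.0% for cytosolic ribosomal protein genes. The letters CGCATGCGC of nuclear respiratory factor 1 (NRF1), a regulator of nuclear genes for mitochondria, stood in 7 (10.1%), against 1.75%, 4.62% and, for cytosolic ribosomal protein genes, 4.92%. By contrast, the interferon-stimulated response element letters AAANNGAAA stood in 7 (10.1%), close to the 10.6% of all windows and the 10.2% of tested genes. For cytosolic ribosomal protein genes this share was 16.4%. CCAAT was found in 39.1% (37.4% of all windows and 42.8% of tested genes), TATAAA in 7.25% (13.6% and 8.36%) and the E-box CACGTG in 7.25% (7.15% and 12.4%). Median GC content was 58.7% in windows of the family, 60.7% in those of tested genes and 52.7% in all windows. A match is a description of letters and not a bound site.

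Promoters of 4 genes of the family are printed as examples of windows with these motifs. Windows are RefSeq sequence of build GRCm38.p6, written along each gene's strand, with matches to NRF1, ETS, YY1 and CCAAT letters in capitals. That of Mrpl52 (chr14:54426659-54426958, plus strand), the gene with the highest level, held the ETS letters at 2 places. That of Mrpl42 (chr10:95501900-95502199, minus strand) held a CCAAT box and the YY1 letters just downstream of the start. That of Mrps18b (chr17:35916391-35916690, minus strand) held the NRF1 and the ETS letters. That of Mrpl50 (chr4:49521034-49521333, minus strand), the gene with the largest difference between groups in the main edgeR fit, held 2 CCAAT boxes and none of the other 3 capitalized motifs. No motif overlapped another in these 4 windows.
Mrpl52: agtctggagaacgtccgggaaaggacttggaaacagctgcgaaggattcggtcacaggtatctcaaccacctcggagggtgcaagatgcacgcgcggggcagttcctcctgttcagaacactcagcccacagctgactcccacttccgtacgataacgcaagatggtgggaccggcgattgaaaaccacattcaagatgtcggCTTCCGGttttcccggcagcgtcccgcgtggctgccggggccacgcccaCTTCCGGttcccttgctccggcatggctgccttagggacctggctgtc
Mrpl42: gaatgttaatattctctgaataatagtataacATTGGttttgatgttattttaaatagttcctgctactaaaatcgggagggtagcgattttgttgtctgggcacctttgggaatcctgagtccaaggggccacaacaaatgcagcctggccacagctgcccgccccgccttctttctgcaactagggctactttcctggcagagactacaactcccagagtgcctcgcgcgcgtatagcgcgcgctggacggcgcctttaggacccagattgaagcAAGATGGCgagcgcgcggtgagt
Mrps18b: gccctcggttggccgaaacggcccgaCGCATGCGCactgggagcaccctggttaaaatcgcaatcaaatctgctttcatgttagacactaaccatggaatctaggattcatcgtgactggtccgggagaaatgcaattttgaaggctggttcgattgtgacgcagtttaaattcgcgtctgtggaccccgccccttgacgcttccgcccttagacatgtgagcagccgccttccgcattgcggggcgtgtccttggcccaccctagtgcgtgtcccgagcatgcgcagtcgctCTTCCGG
Mrpl50: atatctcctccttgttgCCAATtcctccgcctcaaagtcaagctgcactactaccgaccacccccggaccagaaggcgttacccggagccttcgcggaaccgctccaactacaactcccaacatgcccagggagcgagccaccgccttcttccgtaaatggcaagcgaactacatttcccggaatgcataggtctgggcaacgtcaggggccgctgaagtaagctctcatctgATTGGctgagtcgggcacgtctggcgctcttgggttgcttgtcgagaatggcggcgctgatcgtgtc

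Sequencing depth allowed every one of the 78 genes to be tested. Library totals were 4531764 to 7321361 expected counts, a gene of the family had 8 to 499 counts in a library, and the median gene had 71.5 to 114.5. The family took 0.112% to 0.150% of all counts. A floor of 3 counts, which covers counting error only, corresponded to 0.427 to 0.638 depth-normalized count units (CPM), below the value of each gene in each library. Ribosomal RNA of mitochondria took 12.3%, 14.2% and 17.6% of WT counts, compared with 22.7%, 15.1% and 19.6% of Ifnar1-/- counts. WT library 1 stood apart in composition, since small noncoding transcripts of the misc_RNA class took 38.7% of its length-scaled transcript units (TPM) against 14.9% to 20.0% in the other libraries. The family summed to 1135 TPM in that library and to 1769 to 2106 TPM in the others. The targeted gene, Ifnar1, had 153, 126 and 111 CPM in WT and 110, 102 and 109 CPM in Ifnar1-/- libraries (log2 fold change 0.28, two-sided exact permutation p = 0.1, the smallest that 3 against 3 libraries allow). On the TPM scale its direction flipped (-0.29), and whole-gene counts include exons outside a disrupted part, so this gene did not check the genotype labels.

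Among markers of the sorted cells, those of monocytes summed to 8413 to 10221 CPM in WT and 8870 to 10198 CPM in Ifnar1-/- libraries. Ly6c2, which encodes the Ly6C antigen of the gate, had 726, 788 and 640 CPM in WT against 177, 300 and 337 CPM (log2 fold change 1.40, adjusted p = 0.00957, edgeR) and was the only one of the 8 listed monocyte markers to be called. Of the 8, 5 had higher and 3 lower values in WT (median 0.09), with the Fc receptor gene Fcgr1 at 0.71 and the chemokine receptor gene Ccr2 at -0.62 (edgeR adjusted p = 0.0839 and 0.143). T cell markers moved with the groups: all 7 tested of the 9 listed had higher values in WT (0 called by edgeR, 7 under an unadjusted 0.05), and their sum was 95.4 to 129 CPM in WT against 47.4 to 55.6 CPM. Neutrophil markers ranged over 297 to 1894 CPM and 780 to 2228 CPM, and microglia markers over 256 to 329 CPM and 296 to 373 CPM. Oligodendrocyte markers summed to 44.8 to 60.0 CPM and 44.2 to 49.8 CPM, with Mog at 0. Erythroid markers reached at most 1.68 CPM, with Alas2 at 0. The part of T cell RNA and of mitochondrial rRNA in the results below was not tested.

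The levels of the family, compared per length as TPM, covered a wide range. The mean over 6 libraries was between 10 and 50 TPM for 57 genes, below 10 for 17 and above 50 for 4, with a median of 16.9 TPM against 11.9 TPM over tested protein-coding genes. Between any 2 libraries the order of the genes was similar (Spearman 0.868 to 0.924 over 78 genes and 15 pairs, a description, since all genes of a library share its depth and composition). Mrpl52, a mitochondria-specific large subunit protein, ranked first in all 6 libraries, with 161, 274 and 233 TPM in WT and 229, 361 and 229 TPM in Ifnar1-/- libraries. Its mean of 248 TPM was 3.90 times that of Mrpl30, the next gene, but only 1.73 times in CPM, which is not scaled to length, because its transcripts were short (421 bases, effective length 233). Mrpl30, a large subunit protein with a bacterial relative, had 63.4 ± 13.8 TPM (SD, n = 6) and the mitochondria-specific Mrpl54 had 57.4 ± 12.7 TPM. These SDs include differences between libraries that both genes share. Across libraries Mrpl30 ranked between 2 and 3 and Mrpl54 between 2 and 6, and the difference between them was not tested. At the other end stood Mrpl11 (2.69 ± 0.904 TPM), which lies near the factor-binding site of the large subunit, Mrpl49 (3.17 ± 0.712 TPM) and Mrpl50 (3.60 ± 1.36 TPM), 3 large subunit genes whose values overlapped. The mean level of Mrpl52 was 92.0 times that of Mrpl11. Large and small subunit genes had similar medians, 17.2 and 16.6 TPM, as did genes with bacterial relatives (17.2 TPM) and mitochondria-specific ones (16.1 TPM).

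**Figure D1:**
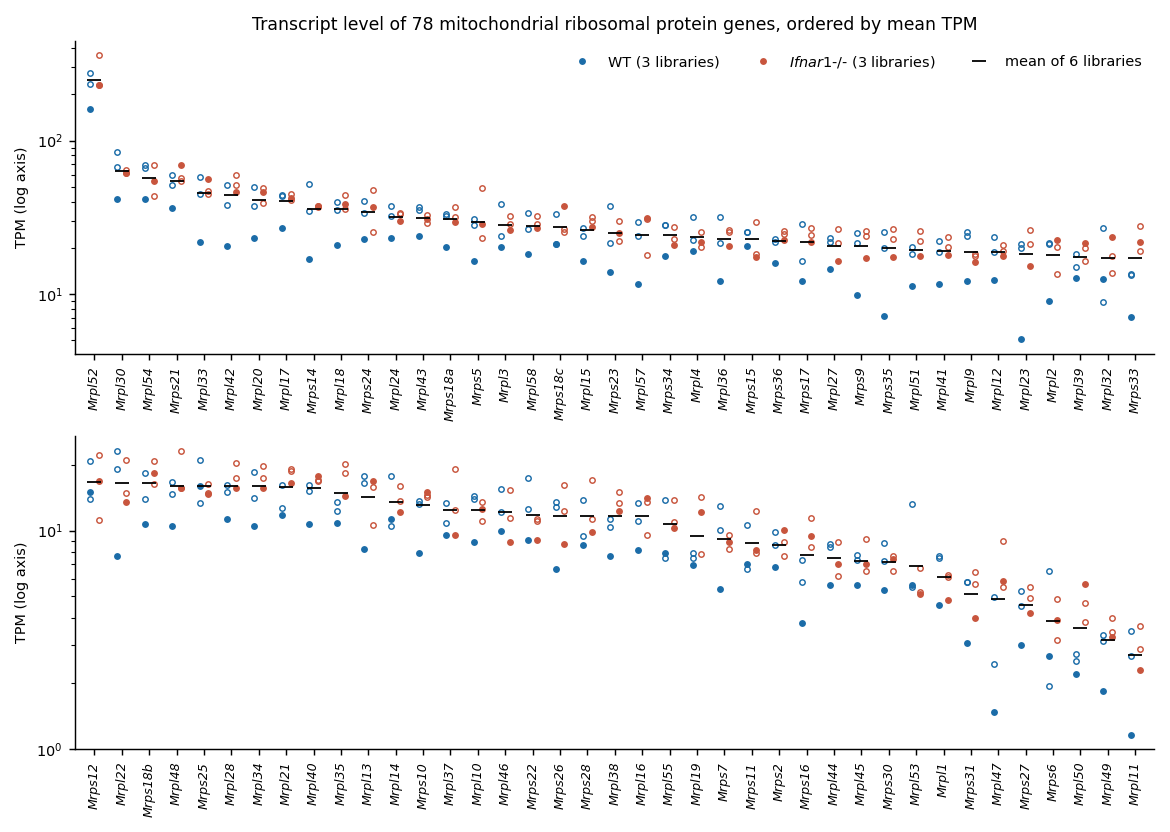
Level of each of the 78 genes in TPM (log axis), in order of the mean over 6 libraries (black dashes), with WT libraries in blue and Ifnar1-/- libraries in red and library 1 of each group filled. Mrpl52 stands alone at 248 TPM, 57 genes lie between 10 and 50 TPM, and the filled blue points of WT library 1 lie low along the family.

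Comparing WT with Ifnar1-/- monocytes asks what the IFNAR1 receptor changed in cells of mice that all received rIFN-β. No gene of the family was called differentially expressed (at least 1.5-fold different, with adjusted p no higher than 0.05), while most had slightly lower values in WT. With edgeR's quasi-likelihood test, 0 of 78 were called, against 240 of 11254 genes tested (2.13%), of which 188 were higher and 52 lower in WT. DESeq2, limma-voom and limma on log2 TPM also called 0. With no filter on low counts edgeR called 1, Mrpl50 (adjusted p = 0.0324). At an unadjusted p under 0.05, 13 genes of the family were lower in WT (16.7%, against 8.14% of all tested genes) and 0 were higher (against 9.69%). Other tools put fewer there, all lower in WT: DESeq2 5 (6.41%, against 5.64% of all genes), limma-voom 12 (15.4%, against 8.55%) and limma on log2 TPM 4 (5.13%, against 2.59%). By DESeq2 this share was thus close to that of all genes. The log2 fold change of WT over Ifnar1-/- was below 0 for 68 genes (87.2%), against 51.8% of all tested genes. Its median was -0.26, a level 16.2% lower in WT, with quartiles of -0.37 and -0.10. Over all tested genes the median was -0.01, with quartiles of -0.24 and 0.24. In 25 genes (32.1%) all WT libraries were below all Ifnar1-/- libraries, against 12.2% of all tested genes, and in 0 genes were they all above, against 11.1%.

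The size of this shift depended on a correction for GC content and transcript length. Genes of the family were short, with a median of 1031 bases against 2133 over all tested genes, and over all tested genes the log2 fold change correlated with GC content (Spearman 0.368) and with length (0.216). Within the family the same correlations were 0.161 and 0.0924, and its median GC content was 51.2%, against 49.96% over all tested genes. When each library was given smooth offsets for both, the median of the family was -0.15 and 57 genes lay below 0 (73.1%, against 52.4% of all tested genes), so that the split of higher and lower genes went from 10 and 68 to 21 and 57. edgeR then called 0 genes of the family, with a lowest adjusted p of 0.0810, and put 8 under an unadjusted 0.05. Of these 6 were lower in WT (7.69%, against 6.17% of all genes in that fit) and 2, Mrpl30 and Mrps22, were higher (2.56%, against 7.33%). Offsets were fitted without regard to genotype, so they also take up a difference between groups that follows GC content or length. How much of the smaller median comes from this was not tested. In bulk samples of this kind, fewer cells of a type and less RNA per cell cannot be told apart.

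The precision differed between genes. Standard errors of the log2 fold change ran from 0.14 to 0.44, with a median of 0.20. The 95% interval lay within 1.5-fold in both directions for 18 genes and within 2-fold for 69. A 1.5-fold rise in WT was outside the interval of 75 genes, whereas a 1.5-fold fall was inside that of 58. Of 51 large subunit genes 45 were lower in WT (median -0.25, 10 under an unadjusted 0.05), and of 26 small subunit genes 22 were lower (median -0.26, 3 under 0.05). Groups did not overlap, with WT below, in 17 large and 7 small subunit genes. Of 45 genes with bacterial relatives 40 were lower (median -0.27, 6 under 0.05, 13 without overlap), and of 29 mitochondria-specific genes 24 were lower (median -0.23, 7 under 0.05, 11 without overlap). Over all tested genes, 8.14% were lower in WT under an unadjusted 0.05, and 12.2% had every WT library below every Ifnar1-/- library. Differences between these groups of genes were not tested. Strand of counting is not stated, and 36 genes overlap no other annotated gene. Of those 31 were lower in WT, with a median of -0.28. The 38 genes whose promoter held NRF1, ETS or YY1 letters had a median of -0.28 and the 31 without them a median of -0.26.

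**Figure D2:**
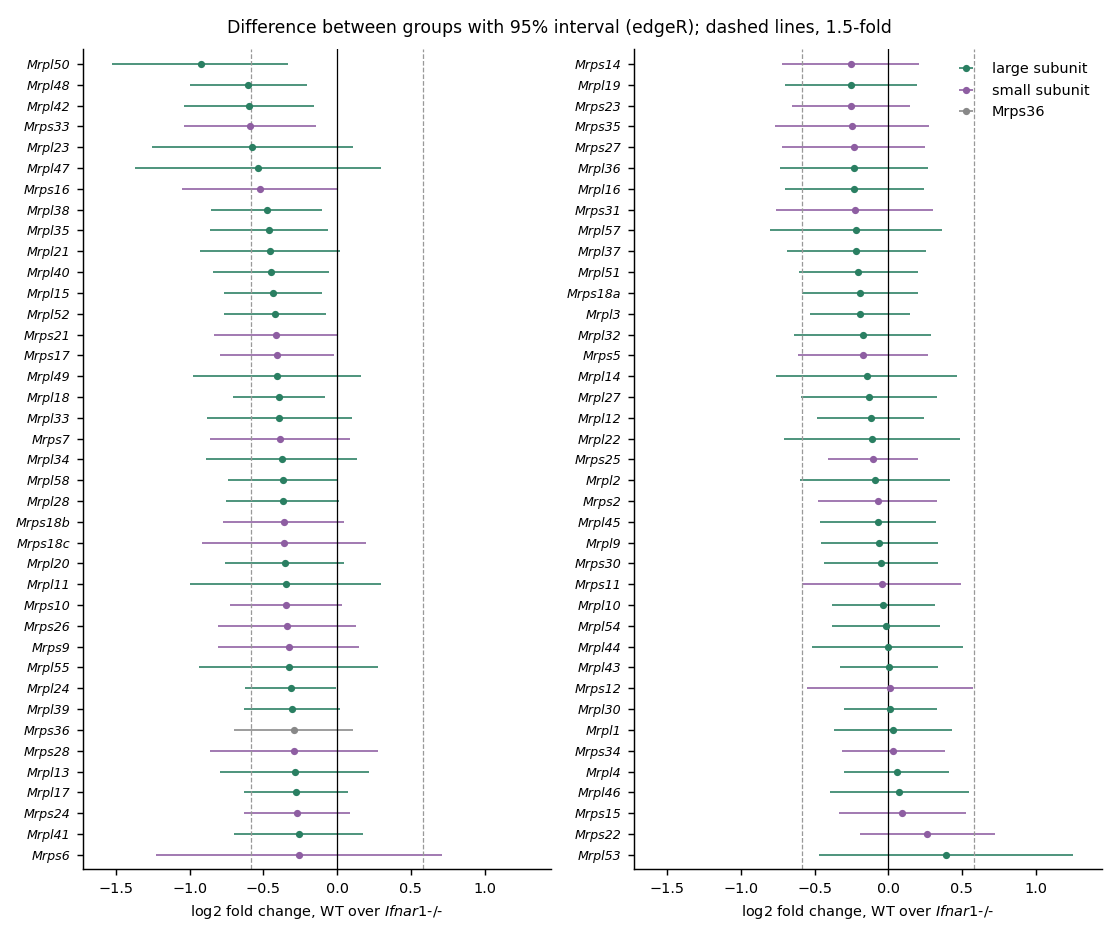
The log2 fold change of WT over Ifnar1-/- for each of the 78 genes with its 95% interval from edgeR, large subunit in green, small subunit in purple and Mrps36 in grey, with dashed lines at 1.5-fold. Points run from -0.93 for Mrpl50 to 0.39 for Mrpl53, and 68 of the 78 lie left of 0.

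The shift was then followed library by library. Relative to each gene's mean over 6 libraries, on the log2(CPM + 0.5) scale, the median of the family was -0.20, 0.02 and -0.14 in WT libraries 1 to 3 and 0.11, 0.08 and 0.16 in Ifnar1-/- libraries 1 to 3. The groups did not overlap, but WT library 2 was close to the Ifnar1-/- libraries. WT library 1 held the lowest value of 31 of the 78 genes and the highest of 1. Over all tested genes it held the lowest value of 24.0% and the highest of 24.2%. WT library 3 held the lowest value of 25 of the 78 (against 15.2% of all tested genes). Ifnar1-/- library 3 held the highest value of 29 of the 78 (against 14.8% of all tested genes). Summed over the family, CPM was 1167, 1362 and 1236 in WT (1255 ± 99.1, SD, n = 3) and 1482, 1460 and 1497 in Ifnar1-/- libraries (1480 ± 18.7, SD, n = 3). Left out in turn, no single library turned the median: it ran from -0.17, without WT library 1, to -0.32, without WT library 2. Without WT library 1, which stood apart in composition, 63 of the 78 genes were lower in WT.

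**Figure D3:**
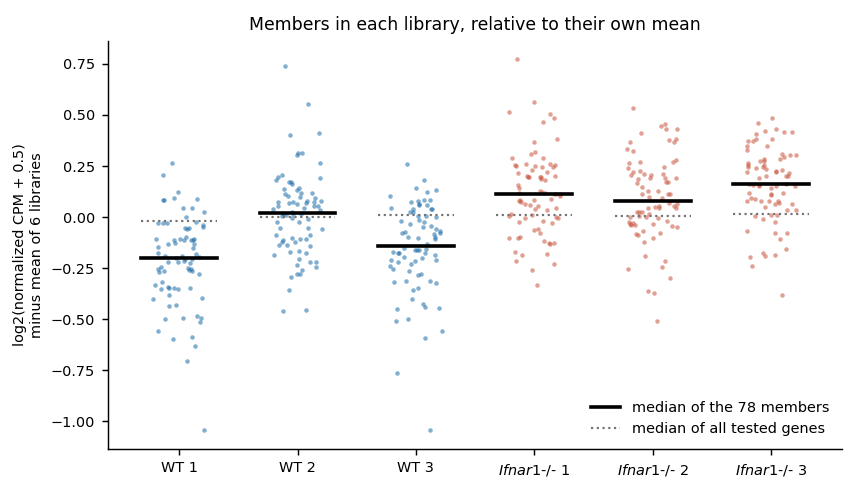
Each point is 1 of the 78 genes in 1 library, as log2(normalized CPM + 0.5) minus the gene's mean over 6 libraries, with the median of the family (black bar) and of all tested genes (dotted). Medians of the family are -0.20, 0.02 and -0.14 in WT and 0.11, 0.08 and 0.16 in Ifnar1-/- libraries.

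Of the large subunit genes, Mrpl50 (ENSMUSG00000044018.3, chr4:49512596-49521093, GRCm38) had the smallest p and the largest difference in the main edgeR fit. It encodes a mitochondria-specific protein and had 5.98, 5.10 and 4.74 CPM in WT and 12.7, 7.29 and 10.3 CPM in Ifnar1-/- libraries. Its groups did not overlap, yet the Ifnar1-/- libraries were spread widely (log2 fold change -0.93, SE 0.27, edgeR adjusted p = 0.118). With the GC and length offsets Mrpl38 had a lower edgeR adjusted p than Mrpl50 (0.0810 against 0.203). Mrpl48, also mitochondria-specific (ENSMUSG00000030706.17, chr7:100545751-100608301), had 12.4, 11.9 and 10.3 CPM in WT against 16.3, 18.6 and 17.7 CPM. All 3 WT libraries lay below the Ifnar1-/- ones (log2 fold change -0.60, SE 0.18, edgeR adjusted p = 0.124). Its pseudogene Mrpl48-ps had at most 2 counts in a library. The annotated range of Mrpl48 overlaps Cox20b, Gm44648 and Rab6a on the opposite strand, and that of Mrpl15, described below, overlaps Gm37144 on the same strand. The part of reads from these neighbours was not tested.

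Mrpl42 (ENSMUSG00000062981.5, chr10:95480805-95501940), a mitochondria-specific protein, had 14.5, 24.0 and 17.8 CPM in WT and 26.3, 28.6 and 29.8 CPM in Ifnar1-/- libraries. Here WT library 2 came close to the lowest Ifnar1-/- library (log2 fold change -0.60, edgeR adjusted p = 0.157). Mrpl15, a core protein with a bacterial relative, had 21.5, 20.2 and 19.9 CPM in WT and 28.6, 28.8 and 25.9 CPM in Ifnar1-/- libraries. Its replicates were tight and separate (log2 fold change -0.43, SE 0.15, edgeR adjusted p = 0.170). Mrpl38, a mitochondria-specific protein, was tighter still, with 12.5, 12.3 and 11.8 CPM in WT against 16.6, 17.6 and 16.9 CPM (log2 fold change -0.48, edgeR adjusted p = 0.176). Mrpl52, the highest gene of the family, had 51.8, 59.3 and 49.4 CPM in WT against 65.1, 84.6 and 64.9 CPM (log2 fold change -0.42, edgeR adjusted p = 0.194). With the GC and length offsets the log2 fold changes were smaller in Mrpl48 (-0.38), Mrpl42 (-0.21), Mrpl15 (-0.17) and Mrpl52 (-0.19). That of Mrpl50 was also smaller (-0.78, against -0.93 without them), and that of Mrpl38 was larger (-0.65).

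Among small subunit genes, Mrps33 (ENSMUSG00000029918.9, chr6:39801804-39810988), which encodes a mitochondria-specific protein, had the smallest p in the main edgeR fit. Its CPM were 8.68, 11.3 and 10.7 in WT and 17.6, 14.2 and 14.0 in Ifnar1-/- libraries, without overlap (log2 fold change -0.59, SE 0.20, edgeR adjusted p = 0.164). Mrps16, which has a bacterial relative, had 5.98, 8.71 and 6.12 CPM in WT against 9.01, 10.8 and 9.93 CPM. Its groups were separate by a narrow gap (log2 fold change -0.53, edgeR adjusted p = 0.279). With the offsets Mrps33 had -0.30 and Mrps16 -0.46, and on the TPM scale Mrps33 had -0.99.

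The remaining 10 genes had higher fitted values in WT, none past the threshold, and in the 6 with the smallest p the groups overlapped. Mrps22, a mitochondria-specific small subunit protein, had 13.1, 17.4 and 12.8 CPM in WT and 10.8, 11.2 and 14.0 CPM in Ifnar1-/- libraries (log2 fold change 0.27, edgeR adjusted p = 0.544). Mrpl53, mitochondria-specific and one of the genes with the fewest counts, had 3.98, 6.38 and 2.57 CPM against 3.05, 2.71 and 4.05 CPM (log2 fold change 0.39, 95% interval -0.47 to 1.25, edgeR adjusted p = 0.639), and this value was 0.04 without WT library 2 and 0.67 without WT library 3. With the offsets Mrps22 had 0.44 and Mrpl53 0.55. Log2 fold changes of the others were 0.09 for Mrps15, a small subunit protein with a bacterial relative, 0.07 for the mitochondria-specific Mrpl46, which was -0.05 without Ifnar1-/- library 1, 0.06 for Mrpl4, a large subunit protein with a bacterial relative, and 0.03 for Mrps34, a mitochondria-specific small subunit protein. With offsets for GC content and length the last 2 turned to -0.16 and -0.08. Values near 0 were also found in Mrpl30 (0.01, -0.02 on the TPM scale and 0.35 with the offsets) and Mrpl54 (-0.02, and 0.06 on the TPM scale), 2 of the 3 genes with the highest levels.

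**Figure D4:**
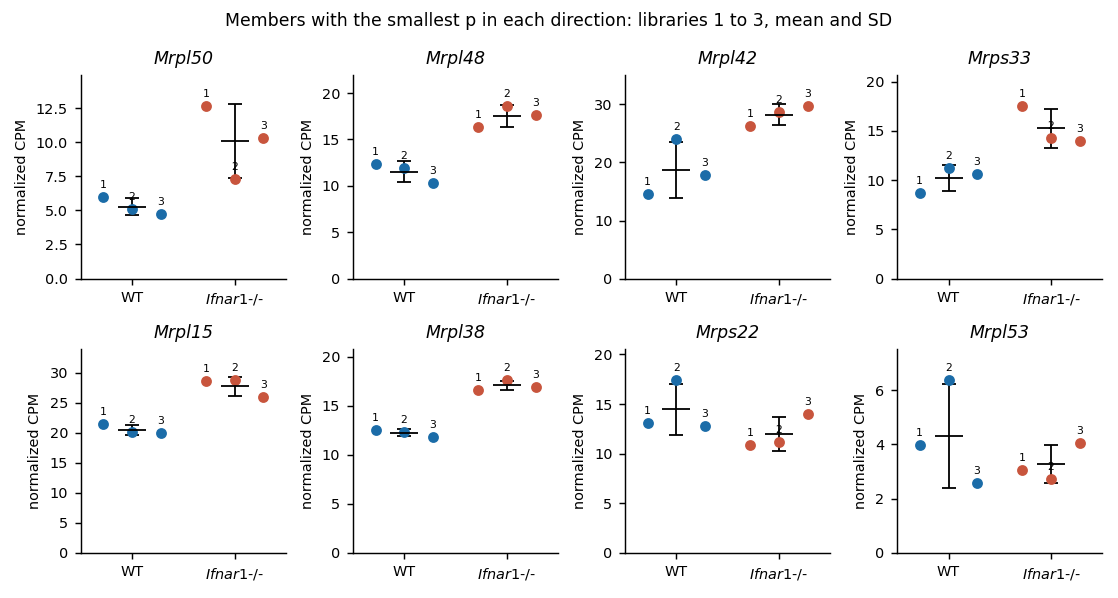
Normalized CPM of 8 genes in each library, numbered 1 to 3 within WT (blue) and Ifnar1-/- (red), with the mean and SD of each group and axes from 0. Mrpl50, Mrpl48, Mrpl42, Mrps33, Mrpl15 and Mrpl38 have every WT library below every Ifnar1-/- library, whereas the groups overlap in Mrps22 and Mrpl53.

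Members with particular roles lay within the range of the rest. Mrpl12, a stalk protein that also binds the mitochondrial RNA polymerase, had 19.6, 20.6 and 24.7 CPM in WT and 22.0, 23.4 and 25.0 CPM in Ifnar1-/- libraries (log2 fold change -0.12, 95% interval -0.48 to 0.24, and -0.23 with the GC and length offsets). Mrpl58, a peptidyl-tRNA hydrolase built into the large subunit, had 13.5, 13.0 and 14.8 CPM against 18.0, 17.1 and 18.2 CPM, without overlap (log2 fold change -0.37, edgeR adjusted p = 0.284, and -0.22 with the GC and length offsets). Mrps30, which in spite of its symbol belongs to the large subunit, had 23.9, 22.5 and 27.0 CPM against 27.6, 20.7 and 27.8 CPM (log2 fold change -0.05, and 0.03 with the GC and length offsets).

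The Mrps18 paralogs take different places, Mrps18a in the large subunit and Mrps18b and Mrps18c in the small. Mrps18a had 20.2, 22.7 and 18.8 CPM in WT and 21.8, 20.7 and 28.0 CPM in Ifnar1-/- libraries (log2 fold change -0.19, and -0.12 with the offsets). Mrps18b had 12.7, 14.9 and 11.8 CPM against 17.9, 18.0 and 14.7 CPM (log2 fold change -0.36, edgeR adjusted p = 0.335), and Mrps18c had 11.2, 14.5 and 8.88 CPM against 19.1, 11.7 and 13.4 CPM (log2 fold change -0.36, but 0.12 with the GC and length offsets). In all 3 the groups overlapped. Mrps36, of the 2-oxoglutarate dehydrogenase complex, had 10.5, 10.4 and 10.9 CPM against 12.4, 12.9 and 13.8 CPM, without overlap (log2 fold change -0.29, edgeR adjusted p = 0.430), and its direction too turned, to 0.11, with the offsets. Among the genes with the lowest levels, Mrpl49 had a log2 fold change of -0.41 and Mrpl11 of -0.35, with edgeR adjusted p of 0.439 and 0.575, and Mrpl11 had -0.08 without WT library 1 and -0.59 without WT library 3. Reads of Mrpl23 could be shared with its copy Mrpl23-ps1, which had 46 to 68 counts in a library, so the value of Mrpl23 is uncertain.

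Other genes of mitochondrial translation were described by lists fixed with earlier results known. All 5 mitoribosomal proteins with other symbols had lower values in WT (median -0.35, 0 called by edgeR, 1 at an unadjusted p under 0.05), with the smallest p for the small subunit protein Chchd1 (12.2, 17.0 and 10.9 CPM in WT against 23.1, 17.1 and 22.1 CPM, log2 fold change -0.64, edgeR adjusted p = 0.163). Of 25 assembly and rRNA modification factors 15 were lower, with a median of -0.04. Fastkd2, which binds mitochondrial rRNA, had the smallest p among them, with 5.98, 6.38 and 6.91 CPM in WT against 11.1, 10.0 and 13.8 CPM (log2 fold change -0.86, edgeR adjusted p = 0.0857). Of 16 translation factors 10 were lower (median -0.18), led by Lrpprc, which stabilizes mitochondrial mRNAs (-0.47, edgeR adjusted p = 0.163). Of 17 mitochondrial aminoacyl-tRNA synthetases 15 were lower (median -0.17), the smallest p being that of the methionyl enzyme Mars2 (-0.49, edgeR adjusted p = 0.354). In these 3 lists 0 genes were called by edgeR, with 2, 2 and 0 under an unadjusted 0.05. With offsets for GC content and length the 4 medians were -0.26, -0.02, -0.04 and -0.20, in the order given.

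Genes of mitochondrial transcription (2 of 5 lower, median 0.08) and regulators of mitochondrial programs (4 of 9 lower, median 0.08) had medians above 0, with 0 called and 0 under an unadjusted 0.05. Tfam, the main packaging factor of mitochondrial DNA, had a log2 fold change of -0.25 (edgeR adjusted p = 0.463) and the coactivator gene Ppargc1b one of 0.67 (edgeR adjusted p = 0.285). With the offsets the medians of these lists were 0.20 and 0.01. Ppargc1a, for a related coactivator, was at 0 in every library. Cell cycle genes had a median of -0.30, with 11 of 15 lower, 0 called and 0 under an unadjusted 0.05, and the smallest p was that of Tyms (-0.59, edgeR adjusted p = 0.477).

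Of the RNAs that the mitochondrial ribosome contains and reads, 1 was called. Of 13 mitochondrially encoded mRNAs 12 had lower values in WT (median -0.70). By edgeR 8 of the 13 were lower under an unadjusted 0.05, against 8.14% of all tested genes, and 1 was called, against 2.13%. The called gene was mt-Atp8, which encodes an ATP synthase subunit, with 204, 280 and 247 CPM in WT against 443, 531 and 366 CPM (log2 fold change -0.88, edgeR adjusted p = 0.0400). Its reading frame overlaps that of mt-Atp6, so that reads could be split between them. With offsets for GC content and length the median of the mRNAs was -0.21 and 0 were called. The rRNA genes mt-Rnr1 and mt-Rnr2 had log2 fold changes of -0.48 and -0.39 (edgeR adjusted p = 0.412 and 0.533). The groups overlapped in the share of counts that mitochondrial rRNA took, and with the offsets mt-Rnr1 turned to 0.01.

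Set beside the other large families of the same kind, the mitochondrial ribosomal proteins had the median nearest to 0 without offsets. Of 81 cytosolic ribosomal protein genes tested, 81 were lower in WT with a median of -0.50, 6 were called and 61 were under an unadjusted 0.05. Of 78 nuclear respiratory chain genes 76 were lower with a median of -0.30, 1 was called (Ndufa12, -1.07, edgeR adjusted p = 0.0208) and 32 were under 0.05. Of the 78 mitochondrial ribosomal protein genes 0 were called and 13 were under 0.05. All those under 0.05 in these 3 families were lower in WT. Over all tested genes 2.13% were called and 8.14% were lower in WT under 0.05. With the GC and length offsets the medians were -0.25 for cytosolic ribosomal proteins, -0.12 for respiratory chain genes and -0.15 for the mitochondrial ribosomal proteins, so that the order of the last 2 turned. These lists share all 6 libraries, and the difference between them was not tested.

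**Figure D5:**
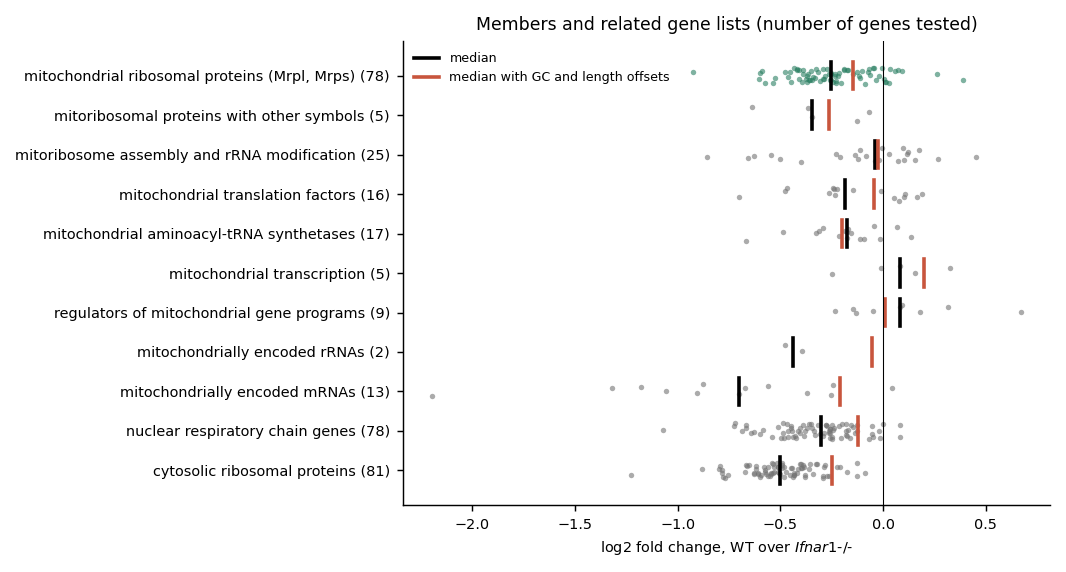
The log2 fold change of WT over Ifnar1-/- for each gene of the family (green) and of related lists (grey), with the median (black) and the median after offsets for GC content and length (red). The median of the family is -0.26, or -0.15 with the offsets, and that of cytosolic ribosomal proteins -0.50, or -0.25.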

How the data were processed

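RNA of sorted monocytes was sequenced on a NextSeq 500 with 75 bp paired ends. The labels name a Takara SMARTer Stranded Total RNA-Seq Pico kit and the study's methods an Illumina TruSeq Stranded Total RNA kit. Submitters' notes list STAR 2.6.0c and RSEM 1.2.31 with GRCm38, and the strand setting is not given in the sources used here. The authors deposited, per gene, RSEM expected counts, TPM and FPKM. FPKM was not used. Symbols came from GENCODE M21 by gene ID without version, with 54165 of 54232 matched. Expected counts were rounded, filtered (filterByExpr), TMM-normalized and tested with edgeR 4.0.16 (glmQLFit, glmQLFTest), without a replicate block, adjusted by Benjamini-Hochberg over 11254 genes. Genes were called when at least 1.5-fold different with adjusted p no higher than 0.05. DESeq2 1.42.0, the study's tool, limma 3.58.1 and the other settings in the closing section were alternatives. The main edgeR step was tested on simulated counts, and the other settings and the promoter search were not.

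The genes, lists and roles were chosen with earlier results of these data known. Genes named were Ifnar1, any called gene of the family, the 6 with the smallest p in each direction, the 3 with the highest and the 3 with the lowest mean TPM, up to 6 without overlap between groups by size of change, the Mrps18 paralogs, Mrps30, Mrpl12, Mrpl58 and Mrps36 by role, both mitochondrial rRNAs, and in each related list the called genes or that with the smallest p. Other genes (neighbouring pairs, Mrpl23, Mrps11, marker genes at 0, Fcgr1, Ccr2 and Ndufa12) were named for a feature described beside them. One marker list is not reported here.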

Additional observations from a re-analysis of the deposited data

How the results depend on the processing

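In 17 refits the median log2 fold change of the family stayed below 0. It was -0.15 with GC and length offsets, also together with a replicate block (-0.15), and -0.27 with the block alone. Genes higher in WT numbered 10, or 21 with the offsets and 21 with offsets and block. Leaving out each library gave medians of -0.32 to -0.17 and 8 to 15 genes higher. The count of called members was 0 except with no filter on low counts, where it was 1 (Mrpl50, -0.93), and 0 to 0 when a library was left out.

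Over all genes, 240 calls became 872 with no filter, 469 with DESeq2, 128 with limma on log2 TPM and 119 to 245 when a library was left out. Calls in the lists of mitochondrial translation numbered 1, or 9 with no filter, 4 with DESeq2 and 2 with the replicate block. They numbered 0 with offsets, with block and offsets and with limma on log2 TPM, and 0 to 1 with a library left out. With mitochondrial and ribosomal RNA removed there were also 0, but that setting left the called gene, mt-Atp8, untested.

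The 28 named genes were followed over 18 settings, of which 17 were refits, and values that repeat the main estimates could not turn direction. Of 500 values, 474 kept direction and side of the threshold and 25, in 10 genes, turned direction. With offsets, and with block and offsets, these were Mrpl4 (-0.16, -0.16), Mrps34 (-0.075, -0.076), Mrpl54 (0.013, 0.019), Mrps18c (0.12, 0.11), Mrps30 (0.031, 0.033), Mrps36 (0.11, 0.11) and, with offsets alone, mt-Rnr1 (0.0072). On log2 TPM they were Mrpl54 (0.062), Mrpl30 (-0.017) and Ifnar1 (-0.29). With each library left out, values spanned 0 in Mrpl4 (-0.020 to 0.19), Mrpl46 (-0.053 to 0.23), Mrpl30 (-0.075 to 0.081), Mrpl54 (-0.11 to 0.078) and Mrps30 (-0.16 to 0.039). The cause was not tested.

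Same-numbered WT and Ifnar1-/- libraries deviated together with r = 0.0872, 0.0265 and 0.289, so the numbers do not establish pairing, and 2 of the 6 libraries, WT 1 and Ifnar1-/- 2, correlated best with another number. The lowest count of any gene of the family, taken in each library separately, was 8 to 22, and the largest standard error was 0.44.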
